A study of Mus musculus with 1920 samples.

Results

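The transcripts followed here are those of 39 interferon response genes, listed by name because interferons are known to induce them, out of 55471 genes in the count table. All 39 were found in the table and all had reads. They were followed in single Lgr5-high intestinal stem cells (ISCs), the cells at the crypt base that renew the gut epithelium, from 3 young and 4 aged mice. Both age groups were B6.129P2-Lgr5tm1(cre/ERT2)Cle/J mice, in which a green reporter and a Cre recombinase inserted at the Lgr5 gene are made in Lgr5-expressing cells. The labels give age only as young or old. No other treatment is given, and cells of a mouse share that animal, so the mouse was the replicate.

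Of 1920 sorted cells, 1836 had at least 1000 detected genes and were kept, 160 to 376 per mouse, with a median of 305492 reads. The ISC markers Lgr5 and Olfm4 had reads in 96.9% and 99.9% of kept cells. Ptprc, which marks white blood cells, had a read in 23 cells (1.25%). The summed level of 18 immune markers ranged from 946 to 4017 CPM (reads scaled to a common total per mouse) in the aged and from 1374 to 2735 CPM in the young mice. Nearly all of it was Cd74, a chaperone of MHC class II with reads in 98.7% of cells. Without Cd74 the immune sums were 4.68 to 8.65 CPM in the aged and 5.28 to 9.49 CPM in the young mice, and none of the 18 markers was at 0 in all mice. The 7 Paneth markers summed to 13549 to 29847 CPM in the aged and 8284 to 27663 CPM in the young mice, and none was at 0 in all mice. The 10 ISC markers summed to 16355 to 27443 CPM in the aged and 20593 to 25993 CPM in the young mice. In aged mice 2 and 3 and young mouse 1 the ISC sum was below the Paneth sum. The 8 enteroendocrine markers summed to 90.3 to 571 CPM in the aged and 25.5 to 146 CPM in the young mice, again with none at 0 in all mice.

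Interferons are secreted proteins that bind receptors on the cell surface and, through JAK kinases, activate STAT proteins. Type I and type III interferons act mainly through a complex with STAT2 and IRF9 that binds the interferon-stimulated response element (ISRE), whereas interferon gamma acts mainly through the gamma-activated site (GAS). In the gut epithelium the induced genes restrict viruses and intracellular microbes and raise antigen presentation.

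RefSeq promoter windows (GRCm38.p6, 250 bases before to 50 bases after a start site) were at hand for 29 of the 39 genes. The ISRE was searched as GAAA followed by 2 free bases and GAAA again, and the GAS as TTC and GAA with 3 free bases between, on both strands, and matches of either motif may overlap. The ISRE letters stood in at least 1 window of 16 of these 29 genes (55.2%) and in 3.99% of 27025 genes with a window. The GAS letters stood in 9 of the 29 (31.0%) and in 9.55% of all genes. Windows with both motifs belonged to 4 genes, Bst2, Gbp7, Igtp and Oas1a, and 8 genes had neither. The windows below belong to genes that lead in the share of positive cells, in co-expression or in the difference between ages. They are given 5′ to 3′, with letters matching either motif in capitals. The matches describe letters, not bound sites.
Ifit1 (chr19:34640639-34640938, plus strand): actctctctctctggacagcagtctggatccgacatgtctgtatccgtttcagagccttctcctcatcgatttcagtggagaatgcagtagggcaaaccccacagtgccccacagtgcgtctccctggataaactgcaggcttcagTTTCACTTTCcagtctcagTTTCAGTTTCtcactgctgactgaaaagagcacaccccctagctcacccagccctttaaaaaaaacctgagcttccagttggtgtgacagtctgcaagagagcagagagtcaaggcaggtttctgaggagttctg
Oas3 (chr5:120777610-120777909, minus strand): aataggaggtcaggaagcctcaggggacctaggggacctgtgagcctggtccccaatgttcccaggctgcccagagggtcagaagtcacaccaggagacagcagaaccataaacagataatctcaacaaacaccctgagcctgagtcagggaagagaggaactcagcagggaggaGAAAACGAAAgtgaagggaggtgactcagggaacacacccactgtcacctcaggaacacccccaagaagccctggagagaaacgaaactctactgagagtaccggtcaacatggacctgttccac
Gbp2 (chr3:142620413-142620712, plus strand): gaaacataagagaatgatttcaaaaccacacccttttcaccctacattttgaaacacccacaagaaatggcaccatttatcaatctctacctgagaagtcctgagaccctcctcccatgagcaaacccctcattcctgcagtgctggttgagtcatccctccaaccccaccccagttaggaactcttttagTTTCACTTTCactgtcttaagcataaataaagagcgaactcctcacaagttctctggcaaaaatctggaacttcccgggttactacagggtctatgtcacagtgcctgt
Irgm1 (chr11:48871371-48871670, minus strand): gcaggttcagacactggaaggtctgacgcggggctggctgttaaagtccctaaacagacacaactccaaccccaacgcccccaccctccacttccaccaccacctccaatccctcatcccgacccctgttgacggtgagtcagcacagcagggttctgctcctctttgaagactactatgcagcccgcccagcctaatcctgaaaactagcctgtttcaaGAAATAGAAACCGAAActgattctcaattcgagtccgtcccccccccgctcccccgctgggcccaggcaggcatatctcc
Irf8 (chr8:120736108-120736407, plus strand): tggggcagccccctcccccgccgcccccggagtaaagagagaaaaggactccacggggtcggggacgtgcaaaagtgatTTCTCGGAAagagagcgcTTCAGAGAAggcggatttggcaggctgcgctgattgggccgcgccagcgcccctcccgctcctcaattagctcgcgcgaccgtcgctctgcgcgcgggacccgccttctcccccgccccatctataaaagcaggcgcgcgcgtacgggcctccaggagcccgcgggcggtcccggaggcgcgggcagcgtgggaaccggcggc
Psmb8 (chr17:34197945-34198244, plus strand): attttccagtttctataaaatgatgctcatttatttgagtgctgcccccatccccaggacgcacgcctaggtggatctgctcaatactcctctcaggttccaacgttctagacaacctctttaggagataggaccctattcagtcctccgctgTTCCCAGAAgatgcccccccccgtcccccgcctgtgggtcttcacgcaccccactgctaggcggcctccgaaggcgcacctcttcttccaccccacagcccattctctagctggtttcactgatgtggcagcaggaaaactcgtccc
Oasl1 (chr5:114922990-114923289, plus strand): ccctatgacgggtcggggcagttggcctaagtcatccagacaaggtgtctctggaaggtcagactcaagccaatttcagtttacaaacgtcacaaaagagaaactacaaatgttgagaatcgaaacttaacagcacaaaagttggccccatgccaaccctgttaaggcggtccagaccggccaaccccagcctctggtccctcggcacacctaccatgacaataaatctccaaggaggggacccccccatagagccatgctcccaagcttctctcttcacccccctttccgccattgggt
Ifit1 and Oas3, which led the antiviral genes in co-expression, held 2 and 1 ISRE matches. The matches of Ifit1 began 104 and 85 bases before the start site, and that of Oas3 75 bases before it. Gbp2 held 1 ISRE match, 59 bases before the start, and Irgm1 held 2 that overlap. Irf8 and Psmb8, both read in nearly all cells, held GAS matches and no ISRE match. Oasl1 held neither.

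The share of sorted cells with a read spanned almost the whole range. To compare cells at 1 depth, each cell was thinned to 100000 reads, which left 1732 cells and set aside 104 that were shallower. In thinned cells 3 genes had a read in over 90% of cells, 9 in 50% to 90%, 10 in 10% to 50% and 17 in under 10%. Irf8, an interferon regulatory factor best known from blood cell development, was read in 97.6% of thinned cells, Psmb8, a catalytic subunit of the immunoproteasome, in 96.5%, and Irf1, a factor induced by interferon gamma, in 94.3%. Irgm1, a GTPase that acts in defense against intracellular pathogens, followed with 86.0%. In unthinned cells these shares were 97.1% for Irf8, 97.3% for Psmb8, 94.9% for Irf1 and 88.2% for Irgm1, and Psmb9, another immunoproteasome subunit, came next with 85.5%. Irf8 was not confined to cells with immune reads. Among the 1801 kept cells without a read of Ptprc, Cd3e, Cd3g, Cd3d or Cd8a, 1748 (97.1%) had an Irf8 read.

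At the other end were some, but not all, of the antiviral genes. Oas1a, Oasl2 and Bst2 were read in 59.3%, 50.3% and 39.9% of unthinned cells. The GTPase genes Gbp3, Iigp1 and Gbp2 were also rare, at 4.36%, 5.39% and 5.45%. In unthinned cells the 5 lowest shares belonged to Mx1 and Ifit3b, each read in 31 of 1836 cells (1.69%), Oas2 in 35 cells, Ifit3 in 41 cells and Rsad2 in 44 cells (2.40%). Mx1 is a gene of the dynamin-like GTPases. Oas2 encodes an oligoadenylate synthetase and Rsad2 viperin, both inhibitors of viral growth. Ifit1, which binds foreign RNA ends, was read in 44 cells, as often as Rsad2. Isg15, a ubiquitin-like modifier, was read in 101 cells (5.50%). Per kilobase of exon, the mean level over the 7 mice was 80.2 CPM per kb for Psmb8, 42.1 for Irf1 and 30.3 for Irf8, against 0.780 for Isg15, 0.243 for Ifit1 and 0.0344 for Mx1. Exon lengths are unions over all annotated transcripts, which can understate a level per length.

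**Figure D1:**
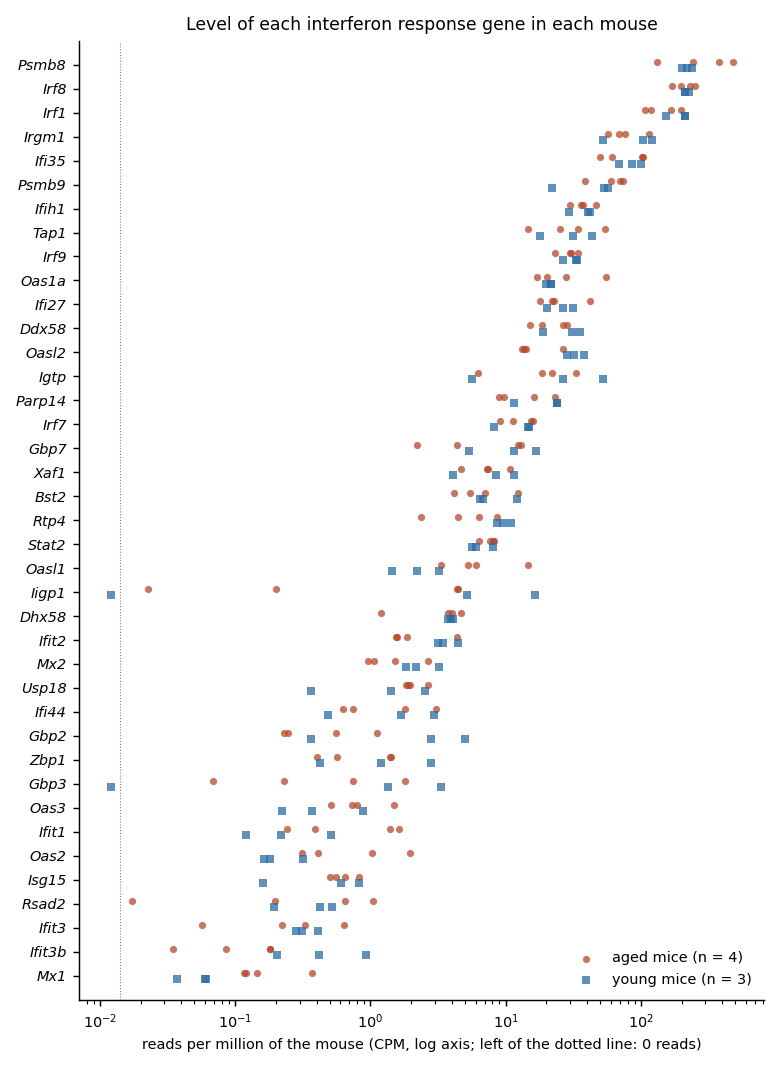
Level of each of the 39 genes in CPM (log axis), with a circle for each of 4 aged and a square for each of 3 young mice, genes ordered by their mean. Circles and squares are mixed in most rows. Psmb8, Irf8 and Irf1 lie above 100 CPM in all mice, whereas Iigp1 and Gbp3 run from 0 reads in young mouse 1 to 16.6 and 3.33 CPM in young mouse 3.

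The reads of the rarest genes lay largely in few cells. The 5 cells with the most reads held 60.5% of all Ifit3b reads, 57.9% of Ifit1 reads, 56.2% of Oas2 reads and 51.0% of Rsad2 reads. Ifit3 and Mx1 followed with 47.0% and 46.7%. For genes read in somewhat more cells the share was 30.5% for Oas3, 28.5% for Gbp3 and 25.6% for Isg15. For Irf8 and Psmb8 the same measure was 3.11% and 3.74%. The measure rises by itself as the cells with a read become fewer, and these numbered 31 for Mx1 and 1783 for Irf8. It therefore does not rank the genes by how unevenly their positive cells were read. A single cell of aged mouse 4 held 38.5% of all Ifit1 reads, and a single cell of aged mouse 1 held 18.0% of all Oasl1 reads. Ifit3 and Ifit3b are near-identical neighbors on chromosome 19, so the split of their reads is uncertain. Other positions (GRCm38) were chromosome 5, 114923240 to 114937915, for Oasl1 and 114896936 to 114912234 for Oasl2, both on the plus strand, and chromosome 3, 142620602 to 142638008, for Gbp2.

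A thinned cell held a read of 12.5 of the 39 genes on average. The median was 13 in aged mice 1 and 2 and in young mice 2 and 3, 12 in aged mice 3 and 4 and 10 in young mouse 1, so the age groups overlapped. The lowest count was 1 gene and the highest 34. In 13 of 1732 cells (0.751%) at least 25 of the genes were read. Aged mice 1, 2 and 4 held 2, 3 and 1 of them, and young mice 2 and 3 held 3 and 4. In aged mouse 3 and young mouse 1 the count was 0, which allows a share of up to 1.70% and 2.05% of their cells.

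**Figure D2:**
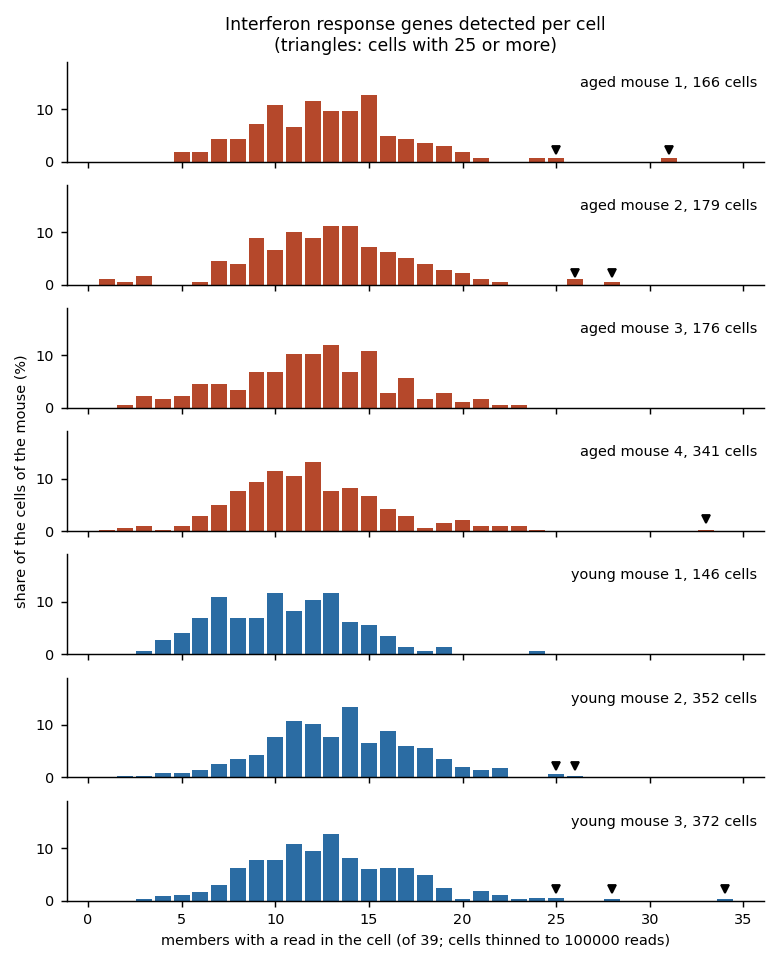
Share of the thinned cells of each mouse (vertical axis, in percent) with a given number of the 39 genes read (horizontal axis), aged mice in red and young mice in blue, and triangles at counts of 25 or more. The medians lie between 10 and 13, and single cells of aged mouse 1, aged mouse 4 and young mouse 3 stand apart at 31, 33 and 34 genes.

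The 3 cells with over 30 of the genes were chosen for that count, so their values are a description. The cell of young mouse 3 with 34 genes had, among 100000 thinned reads, 53 of Igtp, 45 of Irgm1, 35 of Ifi44, 13 of Rsad2 and 5 of Isg15. The cell of aged mouse 4 with 33 genes had 117 Ifit1 reads, 21 of Usp18, the protease that removes ISG15, 11 of Ifit3 and 11 of Oas3. The cell of aged mouse 1 with 31 genes had 81 reads of Irgm1, 58 of Oasl2, 32 of Irf7 and 9 of Isg15, and no Rsad2 read. Each of the 3 had reads of Isg15, Ifit3, Usp18, Oas3, Irf7 and Stat2, but the leading gene differed from cell to cell. All 3 had reads of the ISC markers, with 43, 7 and 24 of Lgr5 and 1856, 53 and 2679 of Olfm4, in the same order. None of the 3 had a read of Ptprc, Cd3e, Cd3g, Cd3d or Cd8a. Among the 20 cells with the most genes, all 20 had Lgr5 and Olfm4 reads and 1 had a read of the 5 immune genes. Lgr5 and Olfm4 were read in 96.9% and 99.9% of kept cells, so having a read does not show a typical ISC level. Among 100000 thinned reads, the 20 cells ran from 1 to 88 of Lgr5 and from 53 to 2679 of Olfm4. Scaled to CPM, the cell with 53 Olfm4 reads lay far below the 13696 CPM of aged mouse 4. The cell with 2679 lay above the 19691 CPM of aged mouse 1.

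Co-expression was described by the Pearson correlation of log2(CPM + 1) over the cells of a mouse, averaged over the 7 mice. Cells of a mouse share the animal and differ in depth, and no p is given. Over the 741 pairs the median r was 0.0873, and 726 pairs were above 0. A like count for pairs of other genes was not taken. Among genes with reads in at least 5% of cells, the median was 0.101 over 465 pairs of the 31 interferon response genes, and 0.0420 between them and all other genes. The highest pair was Gbp2 with Iigp1, both GTPases of the interferon gamma response, at a mean r of 0.367 over the 6 mice in which both were read. Psmb8 with Psmb9 followed at 0.328, from 0.196 to 0.452 in single mice. Ifit1 with Oas3 reached 0.321, but ranged from -0.0151 to 0.742. Irf8 with Irgm1 was at 0.316 and Psmb9 with Tap1, a subunit of the peptide transporter, at 0.296, both above 0 in every mouse. Exons of 15 of the 39 genes overlap another gene. Those of Psmb9 and Tap1 overlap on opposite strands, so without strand their reads could not be told apart there.

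**Figure D3:**
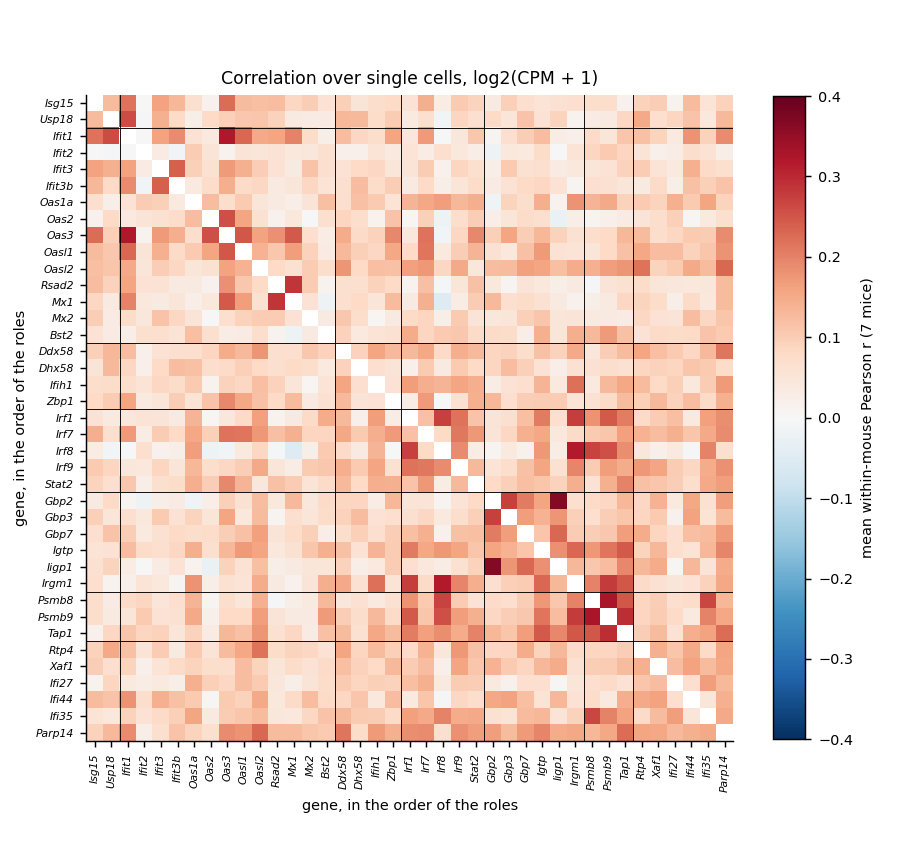
Mean within-mouse Pearson r of log2(CPM + 1) for each pair of the 39 genes (color, from -0.4 to 0.4), genes in the order of their roles with lines between roles. Darker red blocks lie among the GTPases and between Irf1, Irf8, Irgm1 and the immunoproteasome genes, and a separate patch joins Ifit1, Oas3, Isg15 and Usp18.

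By role, the median r was 0.296 over the 3 pairs of Psmb8, Psmb9 and Tap1 and 0.167 among 15 pairs of GTPases. It was 0.153 among 10 pairs of transcription factors and 0.0683 among 78 pairs of antiviral effectors. Some medians between roles were as high. For 15 pairs of a transcription factor with Psmb8, Psmb9 or Tap1 the median was 0.168, above that among the factors. For antiviral effectors it was 0.0930 over 26 pairs with the ISG15 system and 0.0605 over 78 pairs with GTPases. Rare antiviral genes were also counted in pairs by the cells that held both. In thinned cells Ifit1 and Oas3 were read together in 16 cells where their shares in each mouse give 1.31, a ratio of 12.2. Isg15 and Ifit1 met in 11 cells against 1.18, Isg15 and Oas3 in 17 against 2.11, and Gbp2 and Iigp1 in 24 against 4.33. These pair counts describe pairs picked for their overlap or their high r. The 3 cells with over 30 genes supplied 2 of the 16 cells with Ifit1 and Oas3 and 0 of the 24 with Gbp2 and Iigp1.

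Among the 10 genes most like the mean of the 31 more widely read interferon response genes were Ldha (r = 0.474), H2-D1 (r = 0.466), B2m (r = 0.462), Fblim1 (r = 0.453), Plac8 (r = 0.451), Cs (r = 0.450), Krt8 (r = 0.450), Gapdh (r = 0.448) and Tm9sf2 (r = 0.447), each averaged over 7 mice. H2-D1 and B2m form MHC class I molecules, and Ldha and Gapdh are glycolytic enzymes. The mean of the 31 genes also moved with the number of genes detected in a cell, at r from 0.350 to 0.712 across mice, and the median r of all other genes with it was 0.160.

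The comparison of aged with young mice used reads summed over the kept cells of a mouse, where fewer cells with a transcript and less of it per cell cannot be told apart. None passed an adjusted p of 0.05 in edgeR's quasi-likelihood test, 0 of 20957 genes (0.0%) and 0 of the 38 interferon response genes that passed its filter on low counts. At an unadjusted p under 0.05, 2 of the 38 were higher in aged mice (5.26%, against 2.7% of all genes tested) and 3 were lower (7.89%, against 2.54%). DESeq2 called 205 genes (0.825% of those given an adjusted p) and 1 of the 39, Oasl1. The median log2 fold change was -0.065 over the 38 genes and 0.011 over all genes tested. The fitted change was above 0 for 16 and below 0 for 22 of the 38. With a code shared by groups of cells, taken up with the GTPases, as a block, these counts turned to 22 and 16, and without young mouse 3 to 23 and 15. In single mice, young mouse 3 was highest for 12 of the 39 genes and young mouse 1 was lowest for 14. Young mouse 1 also had the lowest median of reads per cell, 211790 against 246615 to 344568 in the others, and its part in these levels was not tested. Leaving out aged mouse 1 raised the 5 genes at an unadjusted p under 0.05 to 9 of 39 (23.1%, against 7.19% of all genes tested), and leaving out aged mouse 2 to 8 of 39 (20.5%, against 4.59%). In CPM, all 4 aged mice lay above all 3 young mice for 2 of the 39 genes (5.13%, against 1.44% of all genes with a read), Oasl1 and Mx1, and below them for 3 (7.69%, against 3.22%), Oasl2, Ifit3b and Rtp4.

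**Figure D4:**
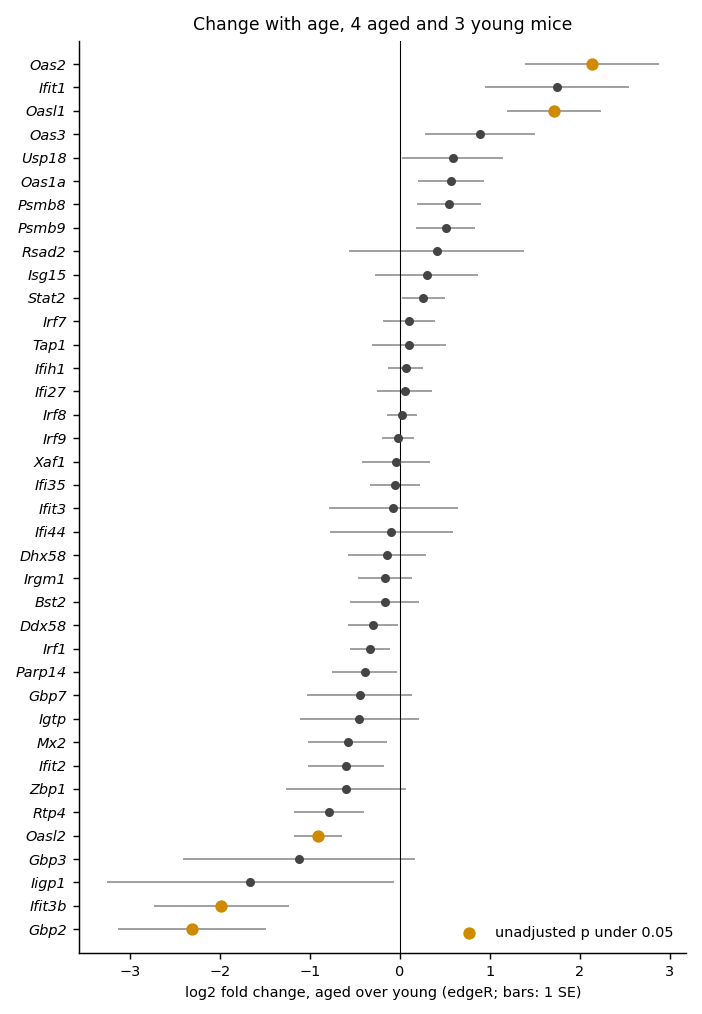
Fitted log2 fold change of aged over young mice (points) with 1 SE (bars) for the 38 genes tested by edgeR in 4 aged and 3 young mice, with the 5 genes at an unadjusted p under 0.05 in orange. Oas2 and Oasl1 are at the top at 2.13 and 1.71, and Gbp2 is lowest at -2.31. Bars of the rarer genes are wide.

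Both genes of the ISG15 system overlapped between the ages. Isg15 had 0.501, 0.826, 0.559 and 0.647 CPM over aged mice 1 to 4 and 0.162, 0.610 and 0.822 CPM over young mice 1 to 3. Young mouse 1 was lowest and young mouse 3 about level with aged mouse 2 (edgeR log2 fold change 0.30 with an SE of 0.57, p = 0.616, adjusted p = 1.00). Usp18 had 1.90, 1.96, 2.67 and 1.85 CPM over aged mice 1 to 4 and 0.364, 1.42 and 2.55 CPM over young mice 1 to 3. Again young mouse 1 was lowest, while young mouse 3 lay among the aged mice (edgeR log2 fold change 0.58 with an SE of 0.56, p = 0.321, adjusted p = 1.00).

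The antiviral effectors split, with 6 of the 12 tested on each side. Oasl1, a 2-5A synthetase-like protein that lacks the synthetase activity, had 14.7, 5.25, 3.34 and 6.02 CPM over aged mice 1 to 4 and 1.44, 2.21 and 3.23 CPM over young mice 1 to 3. All aged mice were above all young mice, with aged mouse 3 only just above young mouse 3. The fold change was 3.28 (edgeR log2 fold change 1.71 with an SE of 0.52, p = 0.00871, adjusted p = 0.694). DESeq2 gave an adjusted p of 0.0492, and over the alternatives the adjusted p ran from 0.0492 to 1.00. The share of thinned cells with an Oasl1 read was 12.0, 15.6, 14.2 and 19.1% over aged mice 1 to 4 and 7.53, 6.53 and 9.95% over young mice 1 to 3. These shares did not overlap either. Without aged mouse 1, which held the cell with the most Oasl1 reads, the log2 fold change was 1.15. Exons of Oasl1 overlap those of Gm13822 on the other strand, so its count is uncertain there.

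Oasl2, its neighbor on chromosome 5, lay on the lower side. It had 26.7, 13.3, 13.8 and 14.2 CPM over aged mice 1 to 4 and 32.3, 28.3 and 38.2 CPM over young mice 1 to 3. All aged mice were below all young mice, and aged mouse 1 lay close to young mouse 2 (edgeR log2 fold change -0.91 with an SE of 0.27, p = 0.00724, adjusted p = 0.694). Its share of thinned cells was 48.2, 36.3, 34.1 and 35.5% over aged mice 1 to 4 and 35.6, 52.6 and 51.1% over young mice 1 to 3, and there the groups overlapped. Over all alternatives the log2 fold change of Oasl2 stayed between -1.20 and -0.59, with an adjusted p from 0.100 to 1.00.

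Oas2 had 0.311, 0.413, 1.03 and 1.96 CPM over aged mice 1 to 4 and 0.182, 0.164 and 0.317 CPM over young mice 1 to 3. Aged mice 3 and 4 were high, and aged mouse 1 lay below young mouse 3 (edgeR log2 fold change 2.13 with an SE of 0.74, p = 0.0175, adjusted p = 0.808). Ifit1 had 0.242, 1.40, 0.387 and 1.63 CPM over aged mice 1 to 4 and 0.121, 0.513 and 0.219 CPM over young mice 1 to 3. Aged mice 2 and 4 were high and the other aged mice lay within the young range (edgeR log2 fold change 1.75 with an SE of 0.80, p = 0.0550, adjusted p = 0.964). Without the 3 cells with over 30 genes the log2 fold change of Ifit1 was 1.00 and that of Oas2 2.10. Over all alternatives that gave a value, Oas2 ran from 0.93 to 2.83, with an adjusted p from 0.171 to 1.00. In edgeR its unadjusted p was 0.0626 without aged mouse 4, 0.0632 without young mouse 2 and 0.0687 with the code as a block, and with thinned cells Oas2 did not pass the filter.

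Ifit3b had 0.0345, 0.182, 0.0860 and 0.183 CPM over aged mice 1 to 4 and 0.930, 0.417 and 0.204 CPM over young mice 1 to 3. Every aged mouse was below every young mouse, aged mouse 4 by little (edgeR log2 fold change -1.99 with an SE of 0.75, p = 0.0248, adjusted p = 0.842). Over all alternatives that gave a value, the log2 fold change ran from -2.56 to -0.25 and the adjusted p from 0.418 to 1.00. The smallest change came with cells weighted equally on a log2(mean CPM + 0.5) scale, which understates the change of low genes. In edgeR the unadjusted p was 0.167 without young mouse 1 and 0.0551 without aged mouse 3, and with thinned cells the gene did not pass the filter. Its share of thinned cells overlapped, at 0.857% ± 0.572 (SD, n = 4) over aged and 1.06% ± 0.368 (SD, n = 3) over young mice. In aged mouse 1 it was read in 0 of 166 thinned cells, which allows a share of up to 1.81%. A single cell of young mouse 1 held 25.0% of all Ifit3b reads.

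Mx1 did not pass the filter on low counts. It had 0.121, 0.116, 0.373 and 0.145 CPM over aged mice 1 to 4 and 0.0607, 0.0372 and 0.0603 CPM over young mice 1 to 3, with all aged above all young mice, from 75 reads in all. Its share of thinned cells was 0.602, 1.12, 1.70 and 1.17% over aged mice 1 to 4 and 0, 0.852 and 1.08% over young mice 1 to 3, which overlapped. The 0 in young mouse 1 allows a share of up to 2.05%. Ifit2, a relative of Ifit1 that also binds RNA, had 1.57, 4.39, 1.55 and 1.88 CPM over aged mice 1 to 4 and 3.42, 3.18 and 4.43 CPM over young mice 1 to 3, with aged mouse 2 within the young range and the other aged mice below it (edgeR log2 fold change -0.60 with an SE of 0.43, p = 0.190, adjusted p = 1.00). Its share of thinned cells was 1.81, 5.03, 9.66 and 7.62% over aged mice 1 to 4 and 12.3, 10.2 and 10.2% over young mice 1 to 3, which did not overlap.

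The other effectors overlapped. Bst2, or tetherin, which holds budding virus at the cell surface, had 12.3, 7.10, 5.43 and 4.15 CPM over aged mice 1 to 4 and 6.84, 12.1 and 6.49 CPM over young mice 1 to 3 (edgeR log2 fold change -0.17 with an SE of 0.38, p = 0.665, adjusted p = 1.00). Aged mouse 1 and young mouse 2 were alike at the top. Rsad2 ranged from 0.0173 CPM in aged mouse 1 to 1.05 CPM in aged mouse 3, wider than the gap between the group means of 0.479 and 0.379 CPM. Ifit3, Oas1a, Oas3 and Mx2 had log2 fold changes of -0.076, 0.56, 0.89 and -0.58, all with an unadjusted p above 0.05. Oas1a, a 2-5A synthetase that triggers RNA decay, was at 30.1 ± 17.2 CPM (SD, n = 4) over aged and 21.2 ± 1.01 CPM (SD, n = 3) over young mice.

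Among the 4 cytosolic sensors of nucleic acids, none reached an unadjusted p of 0.05. Ddx58, or RIG-I, and Ifih1, or MDA5, detect viral RNA and were read in 56.9% and 71.3% of thinned cells. Ddx58 was at 22.2 ± 6.32 CPM in aged and 28.5 ± 8.46 CPM in young mice, and Ifih1 at 37.4 ± 7.02 and 37.3 ± 7.01 CPM (SD, n = 4 and 3). Dhx58, a regulator of both, and Zbp1, a sensor of Z-form nucleic acids that can trigger cell death, were read in 9.82% and 5.77% of thinned cells. Their log2 fold changes were -0.14 and -0.60, with unadjusted p of 0.743 and 0.392. Zbp1 differed by 6.99 times between its highest mouse, young mouse 3, and its lowest, aged mouse 3.

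Among the transcription factors, none of 5 passed an unadjusted p of 0.05. Irf8 had 250.0, 169, 229 and 197 CPM over aged mice 1 to 4 and 211, 211 and 227 CPM over young mice 1 to 3. Aged mouse 1 was highest and aged mouse 2 lowest, so the aged mice spanned the young (edgeR log2 fold change 0.020 with an SE of 0.17, p = 0.908, adjusted p = 1.00). Irf1 had 197, 167, 119 and 108 CPM over aged mice 1 to 4 and 154, 214 and 213 CPM over young mice 1 to 3. Young mice 2 and 3 were highest and aged mice 3 and 4 lowest (edgeR log2 fold change -0.34 with an SE of 0.22, p = 0.160, adjusted p = 1.00). Irf7, the factor that amplifies the type I response, had 9.07, 15.4, 11.3 and 16.0 CPM over aged mice 1 to 4 and 8.27, 14.8 and 14.7 CPM over young mice 1 to 3. Young mouse 1 was lowest and the others overlapped (edgeR log2 fold change 0.10 with an SE of 0.29, p = 0.731, adjusted p = 1.00). Stat2, a part of the ISRE-binding complex, had 7.68, 8.24, 8.07 and 6.35 CPM over aged mice 1 to 4 and 6.03, 8.10 and 5.66 CPM over young mice 1 to 3 and also overlapped (edgeR log2 fold change 0.26 with an SE of 0.24, p = 0.299, adjusted p = 1.00). Irf9, its DNA-binding partner, was at 29.5 ± 4.79 CPM in aged and 31.2 ± 3.90 CPM in young mice (SD, n = 4 and 3). Exons of Irf7 overlap those of Phrf1 on the other strand and exons of Irf9 those of Rnf31 on the same strand, so their counts are uncertain there.

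The GTPases differed widely between mice of the same age. These proteins act in defense against intracellular microbes and are strongly induced by interferon gamma. Iigp1 had 4.39, 4.46, 0.201 and 0.0228 CPM over aged mice 1 to 4 and 0, 5.16 and 16.6 CPM over young mice 1 to 3. It was high in young mice 2 and 3 and aged mice 1 and 2 and near or at 0 in aged mice 3 and 4 and young mouse 1 (edgeR log2 fold change -1.66 with an SE of 1.59, p = 0.322, adjusted p = 1.00). Igtp had 33.3, 22.0, 18.5 and 6.25 CPM over aged mice 1 to 4 and 5.64, 26.6 and 52.3 CPM over young mice 1 to 3. Young mouse 3 was again highest, and aged mouse 4 and young mouse 1 lowest (edgeR log2 fold change -0.45 with an SE of 0.66, p = 0.507, adjusted p = 1.00). Igtp shares exons with Irgm2, so its reads are uncertain. Gbp2 had 1.12, 0.248, 0.559 and 0.228 CPM over aged mice 1 to 4 and 0.364, 2.82 and 5.05 CPM over young mice 1 to 3. Young mice 2 and 3 were high, but young mouse 1 lay among the aged mice (edgeR log2 fold change -2.31 with an SE of 0.82, p = 0.0188, adjusted p = 0.816). Over all alternatives the log2 fold change of Gbp2 ran from -2.93 to -0.83, with an adjusted p from 0.172 to 1.00.

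The mice fell in a like order for Gbp3, Gbp7 and Irgm1. Gbp3 had 1.80, 0.743, 0.229 and 0.0685 CPM over aged mice 1 to 4 and 0, 1.35 and 3.33 CPM over young mice 1 to 3. Gbp7 had 12.9, 12.4, 2.22 and 4.40 CPM over aged mice 1 to 4 and 5.36, 11.6 and 16.7 CPM over young mice 1 to 3. Irgm1 had 115, 76.4, 56.9 and 68.9 CPM over aged mice 1 to 4 and 52.4, 104 and 121 CPM over young mice 1 to 3. The guanylate-binding proteins and the immunity-related GTPases are families of similar genes, so reads may be split between copies. Young mouse 3 was highest for all 6 GTPases, and aged mouse 1 and young mouse 2 were among the top 3 mice for 5 of them. Aged mice 3 and 4 and young mouse 1 were among the top 3 for none. All 6 fitted log2 fold changes were below 0, but only Gbp2 reached an unadjusted p under 0.05 (edgeR, adjusted p = 0.816). In young mouse 1, Iigp1 was read in 0 of 160 kept cells, which allows a share of up to 1.88%. In young mouse 3 it was read in 10.1% of cells.

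The cells' names carry a code that 384 cells share, the number that the study put on a sequencing lane. Within the code shared by aged mouse 1 and part of young mouse 2, Iigp1 was at 4.39 and 7.66 CPM. Within that of aged mouse 2 and the rest of young mouse 2, it was at 4.46 and 3.05 CPM. Within that of aged mouse 3 and young mouse 1, it was at 0.201 and 0 CPM. For Iigp1, mice of both ages were high within 2 codes and low within the third. Gbp2 differed from this. It was at 1.12 CPM in aged mouse 1 and 2.79 CPM in young mouse 2 within the first code, and at 0.248 and 2.85 CPM in aged mouse 2 and young mouse 2 within the second. Within the third it was at 0.559 CPM in aged mouse 3 and 0.364 CPM in young mouse 1. Young mouse 2, split over 2 codes, was thus level for Gbp2 in both, above the aged mouse beside it. Aged mouse 4 and young mouse 3 each had a code of their own, in which mouse and code cannot be told apart. With the code as a block the log2 fold change of Iigp1 turned to 0.53 and that of Gbp2 shrank to -1.34, with edgeR adjusted p of 0.898 and 0.747. In that fit young mouse 2 entered as 2 sums, 1 for each code, which were treated as separate replicates. Aged mouse 4 and young mouse 3, alone in their codes, added nothing to its comparison of ages. The part of the code in the levels was not tested further.

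**Figure D5:**
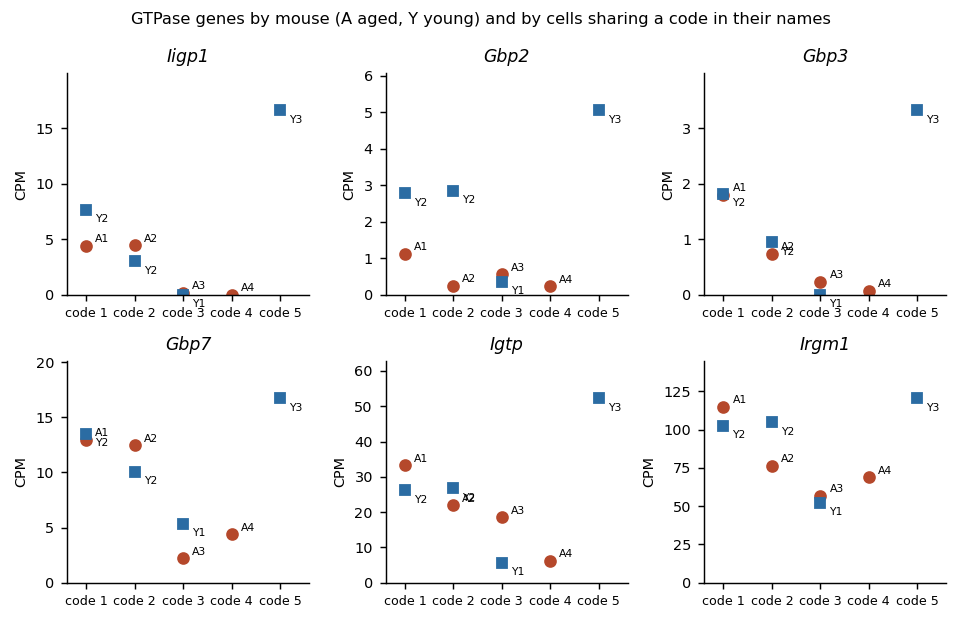
CPM of the 6 GTPase genes in the cells of each mouse (red circles aged, A1 to A4, blue squares young, Y1 to Y3), placed by the code in the cells' names, with young mouse 2 shown once in each of its 2 codes. For Iigp1, aged mouse 3 and young mouse 1, which share a code, both lie low. Aged mice 1 and 2 lie close for Iigp1 although their codes differ, and young mouse 2 differs between its 2 codes. The highest point in every panel is young mouse 3.

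The immunoproteasome and peptide transport genes, which make and carry peptides for MHC class I, all had a fitted change above 0 and none passed the test. Psmb8 had 482, 243, 381 and 132 CPM over aged mice 1 to 4 and 200.2, 221 and 238 CPM over young mice 1 to 3. Aged mouse 1 was highest and aged mouse 4 lowest, so the aged mice ran past the young at both ends (edgeR log2 fold change 0.54 with an SE of 0.36, p = 0.164, adjusted p = 1.00). With the code as a block, where the parts of young mouse 2 count as separate replicates, its log2 fold change was 0.79 (edgeR unadjusted p = 0.00406). Without aged mouse 4 the log2 fold change was 0.78 (edgeR unadjusted p = 0.0118). Over all alternatives the adjusted p of Psmb8 ran from 0.530 to 1.00. Psmb9 had 70.3, 59.7, 73.7 and 38.6 CPM over aged mice 1 to 4 and 21.9, 57.7 and 53.7 CPM over young mice 1 to 3. Young mouse 1 was lowest and aged mouse 4 lay below young mice 2 and 3 (edgeR log2 fold change 0.51 with an SE of 0.33, p = 0.153, adjusted p = 1.00). Tap1 had 54.6, 25.2, 34.2 and 14.7 CPM over aged mice 1 to 4 and 18.1, 31.3 and 43.4 CPM over young mice 1 to 3 (edgeR log2 fold change 0.10 with an SE of 0.41, p = 0.811, adjusted p = 1.00), and its fitted change was -0.16 with thinned cells. Aged mouse 1 and aged mouse 4 were again at the ends. The immune marker sum, nearly all Cd74, was also highest in aged mouse 1 and lowest in aged mouse 4, and its part in these levels was not tested.

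Of the 6 other induced genes, Rtp4, a chaperone of membrane receptors, was lower in all aged mice. It had 8.60, 4.42, 2.38 and 6.35 CPM over aged mice 1 to 4 and 11.0, 8.62 and 9.55 CPM over young mice 1 to 3. Aged mouse 1 lay just below young mouse 2 (edgeR log2 fold change -0.79 with an SE of 0.39, p = 0.0717, adjusted p = 0.987). Its share of thinned cells was 22.9, 17.3, 13.1 and 16.7% over aged mice 1 to 4 and 14.4, 24.1 and 23.9% over young mice 1 to 3, which overlapped. Ifi27, Ifi35, Ifi44, Xaf1, which promotes cell death, and Parp14, an ADP-ribosyltransferase, had log2 fold changes between -0.40 and 0.050 and unadjusted p of 0.305 or more. Ifi44, Xaf1 and Parp14 were each higher in aged mouse 1 and in young mice 2 and 3 than in aged mouse 4 and young mouse 1, as the GTPases were. Ifi35 was at 79.4 ± 27.7 CPM in aged and 85.2 ± 16.1 CPM in young mice (SD, n = 4 and 3).

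In shares of thinned cells, all 4 aged mice were above all 3 young mice for 2 genes (5.13%, against 2.71% of all genes detected), Oasl1 and Oas2, and below them for 1 (2.56%, against 2.13%), Ifit2. Oas2 was read in 2.08% ± 0.676 (SD, n = 4) of cells over aged and 0.871% ± 0.196 (SD, n = 3) over young mice, which rests on few cells per mouse. Without young mouse 1 the 1 gene on the lower side became 10, among them Gbp2, Gbp3, Gbp7, Iigp1 and Irgm1, against 5.85% of all genes. Without aged mouse 1 the 2 genes on the higher side became 5, against 8.62%. Without aged mouse 4 the genes on the lower side numbered 2, Ddx58 and Ifit2, against 3.81% of all genes.

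A further 77 genes of the interferon pathway were followed in the same fit. Of 8 interferon genes, 6 had no read in any mouse, among them Ifnb1, Ifng and the lambda interferon Ifnl2. Ifnk reached at most 0.418 CPM. The receptors were present in all mice, with Ifngr1 at 195 ± 23.3 CPM in aged and 189.6 ± 15.9 CPM in young mice and Ifnar1 at 44.5 ± 9.63 and 53.1 ± 13.0 CPM (SD, n = 4 and 3). None of the 9 receptors and kinases reached an unadjusted p under 0.05, nor did any of 12 class I antigen presentation genes.

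Of the 70 pathway genes tested none passed the adjusted threshold in edgeR. At an unadjusted p under 0.05, 4 were higher in aged mice (5.71%, against 2.7% of all genes tested) and 1 was lower (1.43%, against 2.54%). Ly6e, a surface protein that blocks entry of some viruses, had 246, 504, 525 and 566 CPM over aged mice 1 to 4 and 106, 145 and 119.7 CPM over young mice 1 to 3. All aged mice were above all young mice, and its p was the lowest of the pathway genes (edgeR log2 fold change 1.96 with an SE of 0.29, p = 6.93e-05, adjusted p = 0.115). The enteroendocrine sum was also higher in aged mice 2 to 4 than in the other mice, and its part in this difference was not tested. Trim30a, a regulator of Toll-like receptor signaling, had 2.45, 3.68, 2.59 and 2.14 CPM over aged mice 1 to 4 and 0.324, 0.945 and 0.814 CPM over young mice 1 to 3. All aged mice were above all young mice (edgeR log2 fold change 2.01 with an SE of 0.44, p = 0.00125, adjusted p = 0.380). Trim30a has close copies beside it, so its count is uncertain. Ptpn6, a phosphatase that dampens JAK signaling, and Sp100, a nuclear body protein, had log2 fold changes of 0.73 and 0.76 (edgeR adjusted p = 0.808 and 0.888). Parp12, an antiviral ADP-ribosyltransferase, was lower in all aged mice at -0.66 (edgeR adjusted p = 0.878). Nlrc5, the activator of MHC class I genes, had 10.8, 1.90, 0.573 and 0.578 CPM over aged mice 1 to 4 and 0.0809, 6.53 and 14.4 CPM over young mice 1 to 3. Young mice 2 and 3 and aged mouse 1 were on top, the 3 mice that led most of the GTPases.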

How the data were processed

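Single Lgr5-high cells of 3 young and 4 aged mice were sequenced singly (a Smart-seq2 approach by the methods, a SMARTER kit by the labels). The authors deposited raw counts of reads per gene and cell, without normalization, after mapping single-end reads to GRCm38. The submitters' processing notes name HISAT2 and HTSeq, without versions. For the annotation and strand setting of the counting, the sources used here give nothing. Symbols and coordinates came from GENCODE M21 (55230 of 55471 identifiers matched), and promoters from RefSeq.

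A cell needed 1000 or more detected genes, and no doublet caller was run. CPM used all reads of a mouse or cell. Reads carry no molecular identifiers, so precision from reads covers counting error only. The median depth per mouse ran from 211790 to 344568 reads per cell. Counts summed per mouse were tested in R 4.3.3 with edgeR 4.0.16 (quasi-likelihood, TMM, filterByExpr, Benjamini-Hochberg over all genes), checked on simulated data. DESeq2 1.42.0 and limma 3.58.1 were alternatives. An adjusted p that DESeq2 left missing stayed missing. Shares, correlations and counts per cell had no test. Mouse numbers shared by the ages were not taken to pair the mice in the main test.

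The members and lists were chosen with earlier results of these data known. Named in full were Isg15, Irf7, Stat2, Bst2, Psmb8 and Tap1, the 4 genes with the lowest edgeR p in each direction, the 5 with the highest and the 5 with the lowest share of unthinned cells, the 5 leading pairs, genes with 1 aged mouse far from the others, and pathway genes with an unadjusted p under 0.05. Non-members were the 10 genes most correlated with the mean of the genes read in at least 5% of cells. Of the genes these rules name, 1 is not reported here. Alternatives changed the tool, scaling, filters, cells, depth, weights and blocks, or left out each mouse. With the name code as a block, each part of young mouse 2 counted as a replicate. Leaving out the 3 cells with over 30 genes was chosen after seeing the data.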

Additional observations from a re-analysis of the deposited data

Results flagged for a closer look

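For 4 of the 39 genes, the CPM of 1 aged mouse lay far from the other 3, by the gap to the nearest mouse divided by the range of the aged mice. Oasl2 was highest in aged mouse 1 at 26.7 CPM, with a gap of 0.937 of the range. Mx1 was highest in aged mouse 3 at 0.373 CPM (0.887), Ifit2 in aged mouse 2 at 4.39 CPM (0.884) and Usp18 in aged mouse 3 at 2.67 CPM (0.858). For normally distributed values chance alone flags about 1 in 20 groups, and the rate for the CPM of these genes was not measured. A single cell of aged mouse 3 held 25.3% of all Mx1 reads and another of that mouse 8.38% of Usp18 reads, and a cell of aged mouse 2 held 7.28% of Ifit2 reads. The cell with the most Oasl2 reads was in young mouse 1.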

How the results depend on the processing

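The median log2 fold change of the genes ran from -0.26 to 0.11 over the alternatives, less far from its value of -0.07 than the spread between mice of a group, and did not keep 1 sign. Genes called at an adjusted p of 0.05 were 0 of all genes in edgeR, 205 with DESeq2, 22 with no filter on low counts, 15 with thinned cells, 18 with cells weighted equally in limma, 1 with the name code as a block, and 0 to 8 with 1 mouse left out. Of the 39, DESeq2 called 1. The 5 genes at an unadjusted p under 0.05 became 3 with thinned cells (Oasl1, Oasl2 and Ifit2), 4 with the code as a block (Oasl1, Oasl2, Ifit3b and Psmb8, without Oas2 and Gbp2) and 4 to 9 with 1 mouse left out, against 6.92%, 7.57% and 4.52% to 7.19% of all genes. Young and aged mice with the same number did not deviate together (r of -0.0162, 0.106 and -0.109 for numbers 1 to 3). These few correlations cannot exclude a pairing, and the main test used none. With the number as a replicate block, 3 genes had an unadjusted p under 0.05 (Oasl2, Psmb8 and Rtp4), none of the 39 was called, and the median was -0.018.

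The shares of cells without overlap numbered 2 on the higher side, against 4 in unthinned cells, 1 at 50000 reads, 1 with at least 5 reads and 2 to 5 with 1 mouse left out. The share of all genes on that side was 2.71%, and 1.85%, 2.33%, 1.35% and 3.84% to 8.83% in the same settings. On the lower side the count of 1 became 2, 3 and 2 in the same order, and 1 to 10 with 1 mouse left out, while the share of all genes went from 2.13% to 2.29%, 2.88%, 4.31% and 3.33% to 5.85%. The mean of the mouse medians of genes read per cell was 12.3, 14.0 in unthinned cells and 6.14 with at least 5 reads, since depth and the minimum set it. The median r of 0.0873 moved to between 0.0703 and 0.0863.

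Of 410 values of single genes under the alternatives, 384 kept their sign and side of the threshold and 25 changed sign, none of a gene at an unadjusted p under 0.05. With thinned cells Bst2 had a log2 fold change of 0.00462, Tap1 of -0.16 and Irf8 of -0.036. With cells weighted equally Tap1 was at -0.049 and Irf8 at -0.10. With the replicate block Irf7 was at -0.021 and Rsad2 at -0.56. With the code as a block Irf7 was at -0.011, Rsad2 at -0.15 and Iigp1 at 0.53. With 1 mouse left out, values ran from -0.11 to 0.77 for Isg15, from -0.11 to 0.25 for Irf7, from -0.54 to 0.14 for Bst2, from -0.26 to 0.45 for Tap1, from -0.057 to 0.12 for Irf8, from -0.44 to 0.093 for Irgm1, from -0.27 to 0.80 for Rsad2 and from -0.67 to 0.27 for Ifit3. The cause was not tested. Mx1 and Ifit3b rest on 31 cells each.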
